A study of Mus musculus with 12 samples.

Results

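Oligodendrocytes wrap axons in myelin, and oligodendrocyte precursor cells, which persist in the adult cortex, divide and give rise to new ones. The genes described here are 32 genes of this lineage, taken by name from a list: 18 genes of myelin and of mature oligodendrocytes, 3 transcription factors active throughout the lineage (Olig1, Olig2 and Sox10) and 11 genes of precursors or of cells that have just left that state. All 32 were found, each as 1 row, among the 55487 genes of the deposited table, and all 32 passed the filter on low counts that left 16836 genes to test. As precursors mature they shut down precursor genes such as Pdgfra and Cspg4, pass through a stage marked by Gpr17 and Bcas1, and then switch on the proteins and lipid enzymes of the sheath under SOX10 and MYRF. Mbp mRNA is carried out into the sheath and translated there, so part of the myelin message lies outside the cell body.

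RNA was sequenced from mouse cortex taken 2 hr after controlled cortical impact, an injury made by driving a piston into the exposed cortex. Tissue came from the injured (ipsilateral) and the opposite (contralateral) side of mice of genotype CX3CR1cre-er/+ (here wt, labelled "cre wt") and CX3CR1cre-er/+ STING fl/fl (here cKO), with 3 libraries in each of the 4 groups. Both genotypes therefore carried the Cx3cr1 Cre allele, which is best known for its activity in microglia and blood monocytes, and STING is the adaptor of cytosolic DNA sensing. The series text writes the floxed animals' allele as CX3CR1cre/+, without the tamoxifen-dependent part, tamoxifen is not mentioned, and the ages of the mice are not given in the sources used here. Every mouse was injured and no uninjured brain was among the samples, so the contralateral side is the only control for the injury. The labels do not say that libraries of a group came from separate mice, so p values here reflect only how these libraries varied, which may be technical variation.

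Total counts ran from 7.96 M (M for 1e6 counts) in cKO ipsilateral library 3 to 33.6 M in cKO contralateral library 1, and the lowest count of any member in any library was 38 (Neu4). Tmem173, which encodes STING, stood at 2.34 to 3.69 CPM (counts per 1e6 counts of a library, with library sizes adjusted by trimmed mean of M values) in the 6 wt libraries and at 0.762 to 2.44 CPM in the 6 cKO libraries. Its lowest wt and highest cKO libraries thus overlapped. Neuronal markers summed to 10258 to 12459 CPM per library. The share of counts from mitochondrial genes was 4.27% to 5.45% in contralateral and 5.31% to 8.16% in ipsilateral libraries. Red cell genes summed to 2.10 to 242 CPM in contralateral and 597 to 2104 CPM in ipsilateral libraries, and the part of either in the results below was not tested.

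Myelin genes made up most of the lineage's transcripts. On the TPM scale (transcripts per 1e6 transcripts, which allows for gene length and is the scale used here to set genes beside each other), the 18 myelin genes held 91.3% of the summed mean level of the 32 members. Mbp, myelin basic protein, which zips the cytoplasmic faces of the sheath together, alone held 46.9%, at 1490.0 ± 337 TPM (SD, 12 libraries of 4 groups). It was followed by Mobp, another small basic protein of the sheath, at 348 ± 79.7 TPM. Next came Trf (transferrin, the iron carrier that oligodendrocytes make) at 256 ± 52.4, Cnp (a phosphodiesterase of the cytoplasmic channels) at 173 ± 27.4 and Mag (an adhesion molecule facing the axon) at 142 ± 26.6 TPM.

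The most abundant genes outside the myelin group were Olig1 at 75.9 ± 6.63 TPM and Bcas1 at 75.4 ± 18.4 TPM, a gap smaller than either SD. Among genes of earlier precursors the level was lower, with Pdgfra at 12.2 ± 1.88, Cspg4 at 4.50 ± 0.400 and Neu4, the lowest, at 2.57 ± 0.552 TPM. Of the 31 neighbouring pairs in the order of mean TPM, 27 lay closer to each other than the sum of their SDs. That comparison leaves out that genes can rise and fall together within a library. Cnp and Mag, a pair among the 27, kept their order in every library. The count therefore does not show how firm the order is within libraries.

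**Figure D1:**
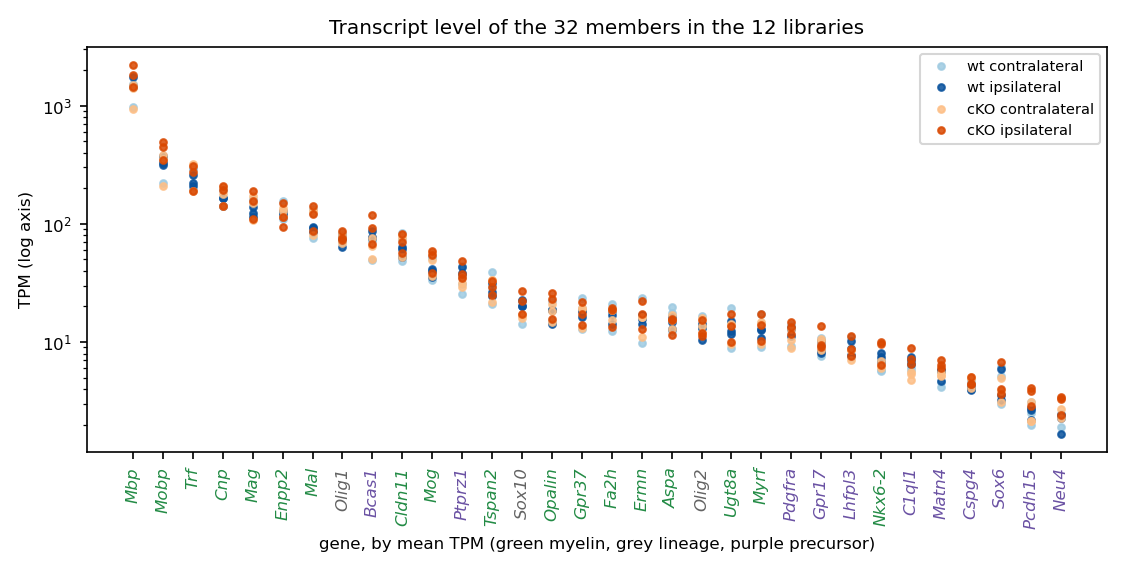
TPM (log axis) of each of the 32 members in the 12 libraries, ordered by mean TPM; each point is 1 library, coloured by group, and gene names are green for myelin, grey for lineage and purple for precursor genes. Mbp stands at 935 to 2188 TPM, above every other member, and Neu4 at 1.67 to 3.40 TPM.

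The first question was whether these genes differed between injured and opposite cortex at 2 hr. With the genotypes averaged, 7 of the 32 members were higher on the injured side and 0 were lower, where 5.99% of all genes tested were called higher. They were Mbp and Nkx6-2 of the 18 myelin genes, Sox10 of the 3 lineage factors, and C1ql1, Matn4, Ptprz1 and Bcas1 of the 11 precursor genes. Their log2 differences lay between 0.36 and 0.51, which is a rise of 28.6% to 41.9%. The median log2 difference was 0.07 for myelin genes, with 17 of 18 above 0 before any threshold, 0.13 for lineage factors and 0.23 for precursor genes, with 11 of 11 above 0. Over all genes tested the median was −0.008 and 48.2% were above 0. These directions were read from counts and did not all hold in mean TPM. Contralateral and ipsilateral Mog stood at 45.9 and 39.0 TPM in wt, and at 47.3 and 50.4 in cKO. Cspg4 stood at 4.63 and 4.04 TPM in wt, and at 4.68 and 4.63 in cKO. Mbp rose in both, from 1315 to 1559 TPM in wt and from 1278 to 1808 in cKO.

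Calls were made with edgeR's quasi-likelihood test over all 4 groups, with p values adjusted over the 16836 genes by the Benjamini-Hochberg method and a threshold of 0.05. Over all genes 1009 were higher and 341 lower, a split that became 873 and 584 when libraries were scaled by their totals alone. The 7 calls rest on counts: with limma on log2(TPM + 1) none of the 7 passed, although all stayed above 0 and the median of all genes there fell to −0.11, with 283 genes higher and 121 lower. In bulk tissue more cells of a type and more RNA per cell cannot be told apart.

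**Figure D2:**
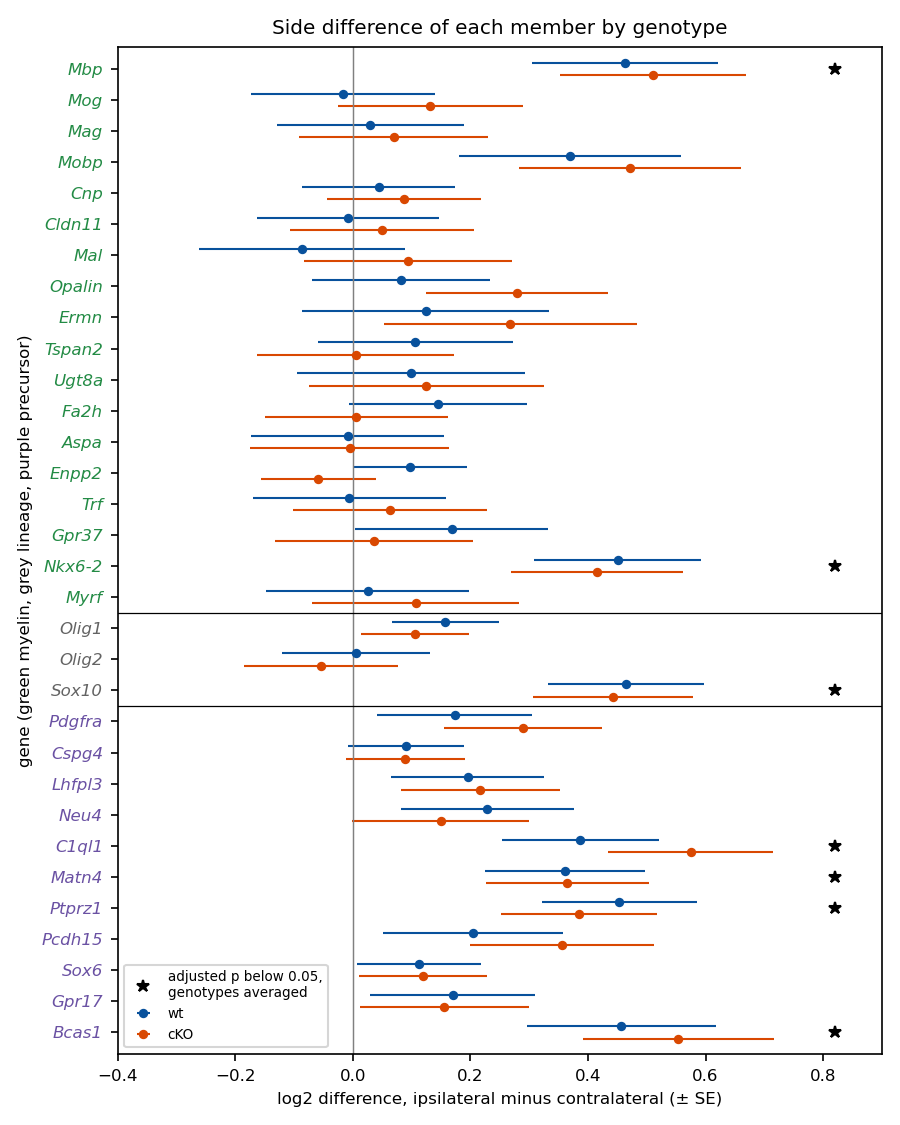
Log2 difference between ipsilateral and contralateral cortex (± SE, 3 libraries per group) of each member in wt (blue) and cKO (orange) mice; stars mark the 7 members that passed with the genotypes averaged. The points of most myelin genes lie near 0 apart from Mbp, Mobp and Nkx6-2, and those of all 11 precursor genes lie above 0 in both genotypes.

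Among the structural proteins of myelin, Mbp (ENSMUSG00000041607) stood at 1136, 1570.4 and 1657 (wt contralateral), 1648, 2351 and 2018 (wt ipsilateral), 1654, 1489 and 1103 (cKO contralateral) and 2075, 1850.2 and 2123 (cKO ipsilateral) CPM in libraries 1 to 3. The lowest contralateral libraries, wt 1 and cKO 3, were well below the rest, and the ranges of the sides met because wt ipsilateral library 1 lay level with the upper contralateral ones. Averaged over genotypes Mbp was higher on the injured side by 0.49 ± 0.11 on the log2 scale (SE, adjusted p = 0.0137, edgeR). Mobp had nearly the same profile, at 341, 501 and 513 (wt contralateral), 494, 679 and 577 (wt ipsilateral), 579, 494 and 316 (cKO contralateral) and 685, 589.5 and 653 (cKO ipsilateral) CPM in libraries 1 to 3. Its difference of 0.42 ± 0.13 did not pass (edgeR adjusted p = 0.0687). Mobp overlaps the predicted gene Gm38642 on the same strand, so the split of reads between them is uncertain.

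Mog, a surface protein of the outermost lamella and a late mark of maturity, overlapped between the sides. Its levels were 33.3, 47.5 and 49.5 (wt contralateral), 40.8, 46.4 and 41.5 (wt ipsilateral), 53.8, 44.2 and 35.1 (cKO contralateral) and 53.4, 42.7 and 50.5 (cKO ipsilateral) CPM in libraries 1 to 3. All 4 groups overlapped, and the log2 difference was 0.06 ± 0.11 (edgeR adjusted p = 0.805). Mag gave 0.05 ± 0.11, Cnp 0.07 ± 0.09, Cldn11 (the claudin of the radial component that seals the sheath) 0.02 ± 0.11, and Mal (a proteolipid of myelin membrane sorting) 0.004 ± 0.12. For these the 95% intervals reached no further than −0.24 and 0.27, so a change of the size seen for Mbp lay outside them.

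Opalin (a sialylated membrane glycoprotein of the sheath) at 0.18 ± 0.11 and Ermn (ermin, which binds actin in the late-forming sheath) at 0.20 ± 0.15 lay above the genes just named and did not pass either. Tspan2, a tetraspanin of early myelination, gave 0.06 ± 0.12. The enzymes of myelin lipids and metabolism did not pass: Ugt8a, which makes galactosylceramide, gave 0.11 ± 0.14, Fa2h, which hydroxylates its fatty acid, 0.08 ± 0.11, and Aspa, which splits N-acetylaspartate to acetate, −0.007 ± 0.12. Enpp2 (autotaxin, the secreted enzyme that makes lysophosphatidic acid) gave 0.02 ± 0.07, Trf 0.03 ± 0.12 and Gpr37, a receptor of mature oligodendrocytes, 0.10 ± 0.12. Their adjusted p values ran from 0.652 to 0.984 (edgeR).

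The transcription factors of the mature cell came next. Nkx6-2 (ENSMUSG00000041309, chr7:139579376-139582797, minus strand, GENCODE M21 on GRCm38), a homeodomain factor of oligodendrocytes and of paranodal organisation, stood at 4.94, 5.67 and 5.13 (wt contralateral), 6.19, 8.50 and 6.83 (wt ipsilateral), 5.69, 4.94 and 5.57 (cKO contralateral) and 7.93, 6.49 and 7.21 (cKO ipsilateral) CPM in libraries 1 to 3. Its highest contralateral library lay below its lowest ipsilateral one, and the log2 difference was 0.43 ± 0.10 (edgeR adjusted p = 0.0162). Myrf, the membrane-bound factor needed to start and to keep up myelin gene expression, gave 0.07 ± 0.12 (edgeR adjusted p = 0.797).

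Of the lineage factors, Sox10 passed. Olig2, the basic helix-loop-helix factor that specifies the lineage, stood at 20.4, 24.1 and 20.6 (wt contralateral), 20.1, 26.1 and 19.2 (wt ipsilateral), 20.5, 22.4 and 17.9 (cKO contralateral) and 17.5, 20.98 and 20.3 (cKO ipsilateral) CPM in libraries 1 to 3, and its partner Olig1 at 92.2, 101 and 90.3 (wt contralateral), 97.8, 122 and 96.9 (wt ipsilateral), 97.2, 97.8 and 87.1 (cKO contralateral) and 99.2, 107 and 96.9 (cKO ipsilateral) CPM in libraries 1 to 3. Both overlapped between sides, with log2 differences of −0.02 ± 0.09 and 0.13 ± 0.06 (edgeR adjusted p = 0.909 and 0.238). Sox10 (ENSMUSG00000033006, chr15:79154908-79165240, minus strand), the SOX factor that drives myelin gene promoters, stood at 23.8, 26.6 and 34.5 (wt contralateral), 32.98, 44.5 and 39.7 (wt ipsilateral), 27.4, 24.6 and 26.6 (cKO contralateral) and 36.7, 32.3 and 38.4 (cKO ipsilateral) CPM in libraries 1 to 3. Apart from wt contralateral library 3, every contralateral library lay below every ipsilateral one, and the difference was 0.45 ± 0.09 (edgeR adjusted p = 0.00745).

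Upstream sequences were looked at because SOX10, whose gene was among the 7, recognises the core letters ACAAAG or ACAATG, while the OLIG proteins bind E-boxes such as CAGCTG. Each window is the 250 bases before a gene's RefSeq start (assembly GRCm38.p6), and 22 of the 32 members had one. Windows of 3 myelin genes that appear in ratios below, and of the 3 called members with an entry, are printed 5′ to 3′ on the gene's strand. In them ACAAAG or its reverse complement CTTTGT is in capitals. Mobp lies at chr9:120149492-120149741, plus strand, Mag at chr7:30914864-30915113, minus strand and Mog at chr17:37023399-37023648, minus strand. Nkx6-2 lies at chr7:139582798-139583047, minus strand, Ptprz1 at chr6:22875252-22875501, plus strand and Matn4 at chr2:164405161-164405410, minus strand.
Mobp: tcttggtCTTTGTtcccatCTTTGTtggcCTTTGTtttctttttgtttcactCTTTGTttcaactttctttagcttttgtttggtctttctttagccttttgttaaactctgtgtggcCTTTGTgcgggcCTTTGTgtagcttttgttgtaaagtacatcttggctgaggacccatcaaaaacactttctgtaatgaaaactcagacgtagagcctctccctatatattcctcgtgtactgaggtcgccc
Mag: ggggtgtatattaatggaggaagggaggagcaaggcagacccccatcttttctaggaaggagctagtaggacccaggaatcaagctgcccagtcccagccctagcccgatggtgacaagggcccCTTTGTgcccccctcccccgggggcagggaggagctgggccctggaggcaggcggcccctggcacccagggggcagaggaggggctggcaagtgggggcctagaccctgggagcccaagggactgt
Mog: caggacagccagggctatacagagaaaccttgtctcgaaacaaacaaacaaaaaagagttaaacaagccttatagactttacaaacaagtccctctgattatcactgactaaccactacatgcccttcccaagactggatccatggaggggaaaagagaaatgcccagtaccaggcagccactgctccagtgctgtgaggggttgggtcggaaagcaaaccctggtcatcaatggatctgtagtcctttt
Nkx6-2: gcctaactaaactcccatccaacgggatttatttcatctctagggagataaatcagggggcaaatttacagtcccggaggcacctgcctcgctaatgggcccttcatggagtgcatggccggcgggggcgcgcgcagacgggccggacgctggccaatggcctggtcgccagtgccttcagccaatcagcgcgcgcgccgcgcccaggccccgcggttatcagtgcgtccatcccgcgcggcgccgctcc
Ptprz1: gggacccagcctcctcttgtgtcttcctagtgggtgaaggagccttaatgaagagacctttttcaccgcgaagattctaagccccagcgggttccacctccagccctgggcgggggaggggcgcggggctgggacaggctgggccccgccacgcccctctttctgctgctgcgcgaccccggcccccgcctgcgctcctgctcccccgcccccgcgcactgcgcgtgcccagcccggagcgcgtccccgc
Matn4: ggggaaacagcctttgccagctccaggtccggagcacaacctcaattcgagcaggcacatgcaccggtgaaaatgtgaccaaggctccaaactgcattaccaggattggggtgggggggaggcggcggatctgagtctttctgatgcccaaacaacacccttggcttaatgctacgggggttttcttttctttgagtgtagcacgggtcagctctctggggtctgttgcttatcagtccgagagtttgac

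The Mobp window held ACAAAG or its complement 6 times, and it was the only 1 of 32851 promoters with so many. Mag held 1 match and Mog, Nkx6-2, Ptprz1 and Matn4 held 0. Over the members ACAAAG was found in 5 of 22 windows (22.7%; Cnp, Mag, Mobp, Opalin and Sox6), against 16.5% of all promoters. ACAATG was found in 2 (9.09%; Ermn and Olig2), against 10.7%, and CAGCTG in 2 (9.09%; Aspa and Lhfpl3), against 13%. Each member has 1 window, at the RefSeq start nearest its GENCODE start, while the 32851 promoters may hold several per gene. For Aspa and Pcdh15 that nearest start still lay 4959 and 722525 bases from the GENCODE start. Both strands were read and no stretch of 6 letters counts under more than 1 of the 3 motifs. These matches describe letters in a short window, not binding.

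Among the precursor genes the receptors and surface molecules came first. Pdgfra, the receptor for the growth factor that keeps precursors dividing, stood at 39.01, 52.1 and 53.1 (wt contralateral), 50.5, 52.7 and 59.4 (wt ipsilateral), 42.5, 47.5 and 35.2 (cKO contralateral) and 48.04, 58.3 and 46.03 (cKO ipsilateral) CPM in libraries 1 to 3. The sides overlapped, and the log2 difference of 0.23 ± 0.09 did not pass (edgeR adjusted p = 0.153). Cspg4, the NG2 proteoglycan that marks precursors and also pericytes, gave 0.09 ± 0.07, and Gpr17, the receptor that marks cells committed to differentiate, 0.16 ± 0.10. Ptprz1 (ENSMUSG00000068748, chr6:22875502-23052916, plus strand), a receptor phosphatase that holds precursors undifferentiated and that astrocytes also make, stood at 114, 129 and 187 (wt contralateral), 193, 189.99 and 206 (wt ipsilateral), 137, 143 and 127 (cKO contralateral) and 169, 177 and 186 (cKO ipsilateral) CPM in libraries 1 to 3. Only wt contralateral library 3 reached the range of the injured side, and the difference was 0.42 ± 0.09 (edgeR adjusted p = 0.0114).

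C1ql1 (ENSMUSG00000045532, chr11:102939264-102946688, minus strand), a secreted C1q-like protein made by precursors, was among the lower members. Its levels were 5.21, 4.53 and 5.20 (wt contralateral), 5.82, 6.35 and 7.36 (wt ipsilateral), 3.85, 4.09 and 4.57 (cKO contralateral) and 5.98, 6.21 and 6.47 (cKO ipsilateral) CPM in libraries 1 to 3. No contralateral library reached an ipsilateral one, and the difference was 0.48 ± 0.10 (edgeR adjusted p = 0.0057). C1ql1 and Nkx6-2 were the only 2 members whose 6 ipsilateral libraries all lay above the 6 contralateral ones, where 3.59% of all genes did so.

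Matn4 (ENSMUSG00000016995, chr2:164389393-164405160, minus strand), a matrilin of the extracellular matrix, stood at 6.87, 7.77 and 5.84 (wt contralateral), 8.28, 10.04 and 8.02 (wt ipsilateral), 7.25, 7.20 and 8.10 (cKO contralateral) and 9.01, 10.8 and 8.96 (cKO ipsilateral) CPM in libraries 1 to 3. The sides overlapped through cKO contralateral library 3, and the difference was 0.36 ± 0.10 (edgeR adjusted p = 0.0328). That call was lost when any 1 of 5 libraries was left out (wt contralateral 1, wt ipsilateral 2, cKO contralateral 1 or 2, or cKO ipsilateral 2), with adjusted p of up to 0.0969. Matn4 also overlaps Rbpjl on the opposite strand, and whether the authors' counting used strand is not stated.

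Bcas1 (ENSMUSG00000013523, chr2:170346991-170427845, minus strand), a myelin-associated protein of newly forming oligodendrocytes, stood at 70.9, 96.6 and 96.6 (wt contralateral), 99.7, 139 and 124 (wt ipsilateral), 102, 83.1 and 67.96 (cKO contralateral) and 127, 105 and 141 (cKO ipsilateral) CPM in libraries 1 to 3. The sides overlapped only where cKO contralateral library 1 exceeded wt ipsilateral library 1, and the difference was 0.51 ± 0.11 (edgeR adjusted p = 0.0125). Bcas1 is overlapped by 2 antisense genes, Bcas1os1 and Bcas1os2.

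The other precursor genes lay above 0 without passing. Pcdh15, a protocadherin, gave 0.28 ± 0.11, Lhfpl3, a tetraspan protein found in precursors, 0.21 ± 0.09, Neu4, a sialidase, 0.19 ± 0.11 and Sox6, which represses differentiation, 0.12 ± 0.08. Of these, Pcdh15, Lhfpl3 and Pdgfra had unadjusted p values of 0.0218, 0.0442 and 0.0268. Counting all members, 11 of 32 had an unadjusted p below 0.05 (edgeR), where 22.9% of all genes did. DESeq2 called the same 7 members as edgeR, where it called 7.11% of all genes higher.

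Libraries of one group differed more in myelin genes than the sides did. To describe this, the log2 CPM of each gene was centred on its mean over the 12 libraries and averaged over the list. For myelin genes this level ran from −0.41 to 0.19 in contralateral and from −0.09 to 0.23 in ipsilateral libraries, so the sides overlapped widely. The low end was set by wt contralateral library 1 at −0.41 and cKO contralateral library 3 at −0.39. Within their groups library 1 was lowest for 18 of 18 myelin genes and library 3 for 17 of 18, while they were lowest for 33.2% and 38.6% of all genes. On the injured side, cKO ipsilateral library 2 was lowest in its group for 16 of 18, and for 32.5% of all genes.

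For precursor genes the level ran from −0.28 to 0.007 in contralateral and from 0.05 to 0.21 in ipsilateral libraries, with no overlap on this scale. On log2(TPM + 1) the sides overlapped, with wt ipsilateral library 2 at −0.090 and wt contralateral library 3 at 0.11. The same measure over 11 astrocyte markers also did not overlap on the CPM scale, at −0.22 to −0.03 and 0.06 to 0.20. Nor did it for other lists described below. For 18 further precursor genes it was −0.22 to −0.05 and 0.08 to 0.18. Genes of sterol metabolism, inhibitors of differentiation and red cell genes also separated by side, while further oligodendrocyte and growth signal genes overlapped. The spread within groups (pooled SD) was 0.10 for precursor and 0.23 for myelin genes. The direct contrast was less clear. Precursor minus myelin level within each library ran from −0.27 to 0.14 in contralateral and from −0.11 to 0.30 in ipsilateral libraries, which overlapped.

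Without the 2 contralateral libraries low in myelin genes, a choice made after the values were seen, the median side difference of myelin genes was −0.06 and that of precursor genes 0.14. Nkx6-2 and Matn4 then had adjusted p values of 0.0533 and 0.0587 (edgeR), and Mbp, Sox10, C1ql1, Ptprz1 and Bcas1 still passed. Leaving out wt contralateral library 1 alone brought the myelin median to −0.008 and leaving out cKO contralateral library 3 alone to −0.002.

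**Figure D3:**
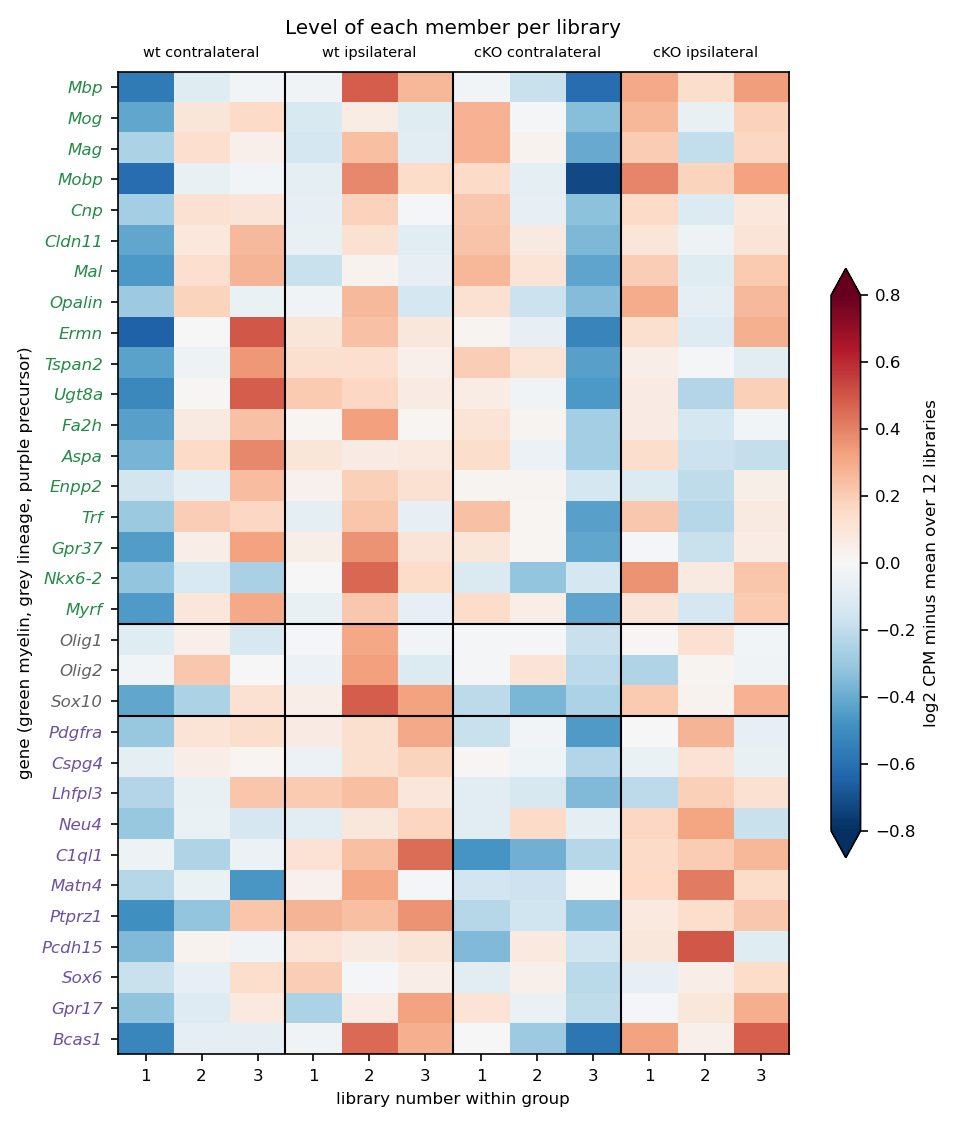
Log2 CPM of each member (rows) in each library (columns), minus the gene's mean over the 12 libraries; red is higher, blue lower, and colours saturate at 0.8. The columns of wt contralateral library 1 and cKO contralateral library 3 are blue for nearly all myelin genes. The rows of C1ql1 and Nkx6-2 lie below 0 in all contralateral and above 0 in all ipsilateral libraries. Nkx6-2 is only just above 0 in wt ipsilateral library 1 (0.005).

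**Figure D4:**
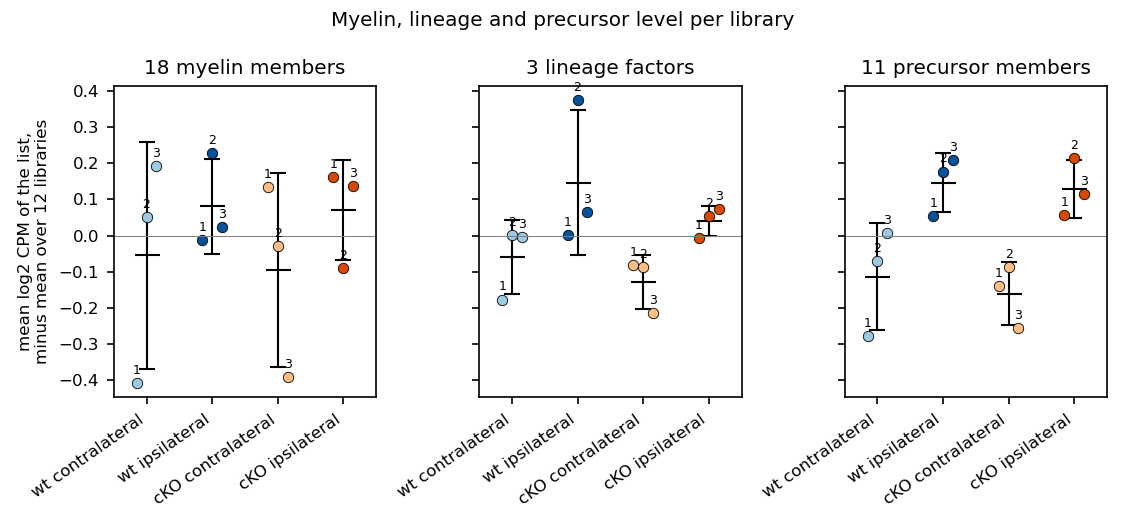
Mean centred log2 CPM of the 18 myelin, 3 lineage and 11 precursor members per library; points are libraries with their numbers, bars are mean ± SD of 3 libraries. Precursor levels on the injured side lie at 0.05 to 0.21, above every contralateral library, while myelin levels overlap; on log2(TPM + 1) precursor levels overlap too.

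Counts were also set against Mog within each library. These ratios were chosen after the values were seen and are given without a test. Mbp counts per Mog count ran from 30.7 to 34.1 in the 6 contralateral and from 38.9 to 50.7 in the 6 ipsilateral libraries. Mobp counts per Mog count ran from 8.99 to 11.2 and from 12.1 to 14.6. Neither ratio overlapped between sides, in libraries low or high in myelin genes alike. The share of all genes that separate by side against Mog or Mag is not given here. Whether separation in these ratios and those that follow is unusual therefore cannot be read from them.

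Bcas1 counts per Mog count ran from 1.88 to 2.13 in contralateral and from 2.38 to 2.997 in ipsilateral libraries, again without overlap. Mbp per Mag gave the same separation, at 9.23 to 10.95 and 12.3 to 14.6. Mal counts per Mog count, by contrast, ran from 3.82 to 4.41 and from 3.87 to 4.15, and Pdgfra counts per Mog count from 0.790 to 1.17 and from 0.900 to 1.43, both overlapping. Measured against the mean of all 18 myelin genes rather than Mog, only Mbp and Bcas1 of the 32 members had every ipsilateral library above every contralateral one, where 1.46% of all genes did. A ratio shows that the genes changed unequally, not which of them changed.

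**Figure D5:**
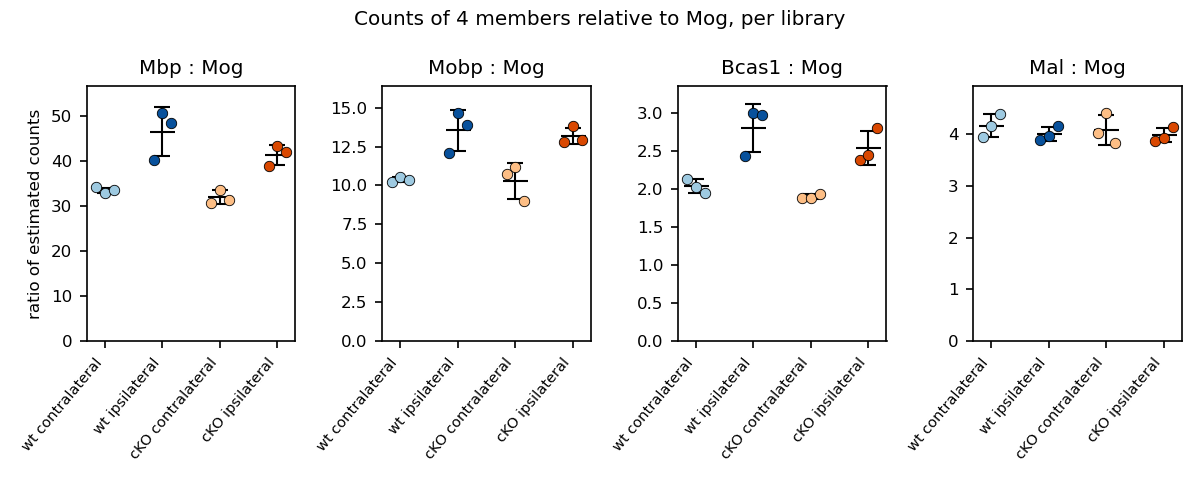
Estimated counts of Mbp, Mobp, Bcas1 and Mal divided by those of Mog, per library (axes start at 0); points are libraries, bars are mean ± SD of 3 libraries. The first 3 ratios are higher in all ipsilateral than in all contralateral libraries (Mbp at least 38.9 against at most 34.1), and Mal per Mog overlaps.

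Taken in each genotype alone, with 3 libraries on each side, the comparison called fewer members. In wt cortex 0 of 32 passed with edgeR, where 2.73% of all genes were called higher; 7 members had an unadjusted p below 0.05, where 14.4% of all genes did. DESeq2 called 2 (Sox10 and Ptprz1), where it called 3.64% of all genes higher, and limma on TPM called 0. The medians were 0.09 for myelin and 0.20 for precursor genes. The lowest adjusted p values were those of Sox10 (0.47 ± 0.13, adjusted p = 0.0831) and Ptprz1 (0.45 ± 0.13, adjusted p = 0.0902). Without wt contralateral library 1 the medians in wt were −0.08 and 0.10.

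In cKO cortex 1 of 32 passed, C1ql1, at 0.57 ± 0.14 (edgeR adjusted p = 0.0393), where 2.56% of all genes were called higher. That call was lost when any 1 of 7 libraries was left out (wt contralateral 1, wt ipsilateral 2, cKO contralateral 1 or 2, or any cKO ipsilateral library), with adjusted p of up to 0.198. In cKO cortex 10 members had an unadjusted p below 0.05, where 14.3% of all genes did, and DESeq2 called 4 (Mbp, Sox10, C1ql1 and Bcas1), where it called 3.3% of all genes higher. The medians were 0.09 for myelin and 0.29 for precursor genes. Without cKO contralateral library 3 they were −0.06 and 0.18.

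Counted by overlap of CPM, 6 of 32 members in wt had every ipsilateral above every contralateral library, where 10.5% of all genes did: Nkx6-2, C1ql1, Matn4, Ptprz1, Pcdh15 and Bcas1. In cKO it was 8 of 32, where 10.8% of all genes did: Mbp, Mobp, Nkx6-2, Sox10, C1ql1, Matn4, Ptprz1 and Bcas1. No member went the other way in either genotype.

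The second question was whether STING fl/fl mice differed. No member was called, and 0% of all genes were, in contralateral cortex, in ipsilateral cortex, over both sides, or for the difference between the side responses. Without the filter on low counts edgeR called 96, 223, 236 and 72 genes in these 4 comparisons, of which 91, 214, 229 and 67 pass that filter and 0 are members. In each of the 4 comparisons 0 of 32 members had an unadjusted p below 0.05, where 2.7%, 5.86%, 6.46% and 2.26% of all genes did, and DESeq2 and limma on TPM also called 0 members. On the injured side the log2 differences cKO minus wt ran from −0.22 (Gpr37) to 0.19 (Mog), and their 95% intervals reached from −0.55 to 0.52. On the opposite side they ran from −0.26 (C1ql1) to 0.17 (Neu4), with intervals from −0.60 to 0.46.

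The side responses of the genotypes were also compared directly. The difference of side differences, cKO minus wt, was 0.05 ± 0.22 for Mbp, −0.02 ± 0.19 for Sox10, −0.07 ± 0.19 for Ptprz1, 0.19 ± 0.19 for C1ql1 and 0.10 ± 0.23 for Bcas1 (edgeR adjusted p = 1 for each). Over the members it ran from −0.16 (Enpp2) to 0.20 (Opalin), and the intervals reached from −0.59 to 0.73. A difference between genotypes as large as the side differences above therefore lay within the intervals of some members.

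Other genes of the lineage were counted from further lists, with the genotypes averaged. Over all genes tested, edgeR called 5.99% higher and 341 of 16836 lower, and DESeq2 called 7.11% higher and 578 lower. Of the lists below, DESeq2 called 6 of the 24 oligodendrocyte, 5 of the 18 precursor and 2 of the 13 growth signal genes. Of 24 further oligodendrocyte genes 4 were higher and 0 lower, with a median of 0.16. They were Adamts4, a matrix protease that mature oligodendrocytes make, at 0.67 ± 0.12, Cryab, a small heat shock protein, at 0.37 ± 0.07, Plekhb1 at 0.39 ± 0.09 and Evi2a at 0.38 ± 0.11 (edgeR adjusted p = 0.00289, 0.00364, 0.0105 and 0.0379). Of 9 genes of newly formed oligodendrocytes 0 passed with edgeR, 2 had an unadjusted p below 0.05, DESeq2 called 1 (Itpr2), and the median was 0.07. Of 18 further precursor genes 3 were higher and 0 lower, with a median of 0.26. They were Cacng4, a receptor-trafficking subunit, at 0.29 ± 0.06, Ednrb, an endothelin receptor, at 0.35 ± 0.08 and Rlbp1, a retinoid carrier, at 0.25 ± 0.06; Ednrb and Rlbp1 are also made by astrocytes.

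Myelin is rich in cholesterol, and of 16 genes of sterol metabolism 8 were higher and 0 lower, with a median of 0.19. Among them were Insig1, the sterol-sensing retention protein, at 0.54 ± 0.06, and the pathway enzymes Idi1 at 0.54 ± 0.09 and Lss at 0.38 ± 0.07 (edgeR adjusted p = 1.31e-05, 0.00119 and 0.00178). These genes are active in many cell types. Of 11 genes of myelin sphingolipid synthesis 1 passed, the fatty acid elongase Elovl1, at 0.26 ± 0.08 (edgeR adjusted p = 0.0494), and the median was −0.02.

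Of 13 genes of growth signals to the lineage 1 passed, Lif, the cytokine that acts on oligodendrocytes through gp130, which rose from 0.378 ± 0.379 CPM in contralateral to 3.85 ± 1.73 CPM in ipsilateral libraries (SD, n = 6 each, edgeR adjusted p = 5.73e-05). The contralateral level is low, where 3 counts are 0.0894 to 0.144 CPM in those libraries, so the size of the rise is uncertain. Its log2 difference was 2.46 ± 0.55 in wt and 4.86 ± 0.68 in cKO (SE). Of 11 inhibitors of differentiation 4 were higher and 0 lower, with a median of 0.24. They were Hes5 at 0.95 ± 0.13, Notch1 at 0.58 ± 0.08, Hes1 at 0.48 ± 0.10 and Id2 at 0.24 ± 0.05, the Notch receptor and repressors that hold precursors back (edgeR adjusted p = 0.000199, 0.000305, 0.00745 and 0.0144). They are not made by precursors alone.

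Markers of other cells moved with side too, and their part in the results above was not tested. Of 11 astrocyte markers 7 were higher and all 11 lay above 0, with a median of 0.24. Their summed level was 4499 to 5330 CPM in contralateral and 5283 to 5949 CPM in ipsilateral libraries. The 4 with the lowest adjusted p were Sox9, Slc4a4, Slc1a3 and Fgfr3, with Sox9 at 0.82 ± 0.10 (edgeR adjusted p = 5.43e-05). Ptprz1, Ednrb, Rlbp1, Hes5 and Notch1 are all made by astrocytes as well.

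Of 10 neuronal markers 2 were lower (Snap25 and Syt1), of 9 microglial markers 1 was lower (Tmem119), and of 9 meningeal fibroblast markers 3 were lower (Slc6a13, Ogn and Col1a2) and 0 lay above 0. Over all genes tested, edgeR called 341 of 16836 lower. DESeq2 called 3, 2 and 5 markers of these lists. Of 10 striatal markers 9 lay above 0 and 0 passed with edgeR, with 2 at an unadjusted p below 0.05 and 0 called by DESeq2. None of 8 mural, 7 interneuron or 6 tested choroid plexus markers passed with edgeR, with 2, 4 and 0 at an unadjusted p below 0.05 and 0 called by DESeq2; Otx2, another choroid plexus marker, was too low to be tested. Choroid plexus genes summed to 3.15 to 44.2 CPM in wt ipsilateral and at most 11.1 CPM in other libraries. Schwann cell markers, which would mark myelin of peripheral nerve, summed to 7.26 to 11.6 CPM, and Foxd3 was among those too low to be tested. All 5 red cell genes were higher, with a median of 4.20.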

How the data were processed

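Cortex RNA (Trizol, a stranded mRNA kit) was sequenced in 12 libraries. The submitters' processing notes name, without order or role, Trim Galore 0.6.4, STAR 2.7.1a, the mm10 genome, RSEM 1.2.28 and DESeq2 1.36.0. The authors deposited 1 RSEM estimated count per gene and library, as whole numbers. TPM values, also RSEM's, were deposited beside them. The annotation and strand setting are not stated.

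Gene IDs were matched to GENCODE M21 (55141 of 55487, 99.4%; the rest held at most 0.0246% of counts). The members and all lists were chosen with earlier results of these data known. In R 4.3.3, edgeR 4.0.16 kept genes by filterByExpr (minimum count 10, total 15; 16836 kept, 38651 removed). Library sizes were adjusted by TMM (trimmed mean of M values), a model over 4 groups of 3 was fitted, and 7 comparisons were tested with Benjamini-Hochberg adjustment (threshold 0.05). Log2 CPM used a prior count of 2, and the code was tested on simulated counts. Intervals called 95% are the log2 difference ± 1.96 SE. That normal quantile makes no allowance for the few libraries, so they cover somewhat less than 95%. Total counts were 7.96 to 33.6 M (1e6), and 3 counts, taken as the floor, are 0.0894 to 0.377 CPM, for counting error only.

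All 32 members are named; of other lists, the called genes with the smallest adjusted p, at most 4 per list and comparison. Alternatives were DESeq2 size factors, library totals, both no and a stricter low-count filter (1 CPM in 3 libraries, total 100), DESeq2 1.42.0, limma 3.58.1 on log2 TPM (1 or 0.1 added, mean of at least 1 TPM), a replicate block, the compared groups alone, and libraries left out. Promoter sequences are RefSeq's (GRCm38.p6). Values of some single genes in the further lists are not reported here.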

Additional observations from a re-analysis of the deposited data

How the results depend on the processing

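No member called in the main run or in an alternative changed sign between the 2. The median side difference of myelin genes did change sign when 1 library was left out. It ran from −0.08 to 0.21 in wt, from −0.06 to 0.23 in cKO and from −0.008 to 0.15 with the genotypes averaged. For the genotypes averaged, 6 to 8 members were called with 1 library left out, and 0 with limma on log2 TPM plus 1 or plus 0.1. Over all genes, the run without a filter called 991 of 29438 in wt and 968 of 29438 in cKO. The compared groups alone gave 489 of 16250 in cKO. Without cKO ipsilateral 3 and wt contralateral 3 it was 968 of 17047 in wt. In wt, members called were 5 without a filter, 2 with DESeq2, 2 without cKO ipsilateral 3 and wt contralateral 3, and 0 to 2 with 1 library left out; the precursor median was 0.012 and 0.020 with TPM plus 1 and plus 0.1, 0.10 without wt contralateral 1 and cKO contralateral 3, and 0.10 to 0.30 with 1 library left out. In cKO, members called were 5 without a filter, 4 with DESeq2, 0 and 0 on TPM, 2 with the compared groups alone, 0 without that low pair, and 0 to 3 with 1 library left out; the precursor median was 0.18 without that pair and 0.17 (without cKO ipsilateral 2) to 0.35 with 1 library left out. With TPM plus 1 and plus 0.1 the precursor median for cKO minus wt was 0.16 and 0.18 on the injured side and 0.070 and 0.070 over both sides, and for the difference of responses 0.18 and 0.21. On log2(TPM + 1), precursor levels of libraries moved to 0.042 in cKO contralateral 2, 0.061 in cKO ipsilateral 2, 0.36 in cKO ipsilateral 3, 0.11 in wt contralateral 3, −0.090 in wt ipsilateral 2 and −0.024 in wt ipsilateral 3, so that the sides overlapped. The cause of these shifts was not tested.

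Mbp, Sox10, C1ql1, Ptprz1 and Bcas1 passed whichever of the 12 libraries was left out, and Nkx6-2 was lost without cKO ipsilateral 1 (adjusted p 0.0555). Genes called over the whole table, 1350, ran from 876 (without wt ipsilateral 2) to 2075 (without wt contralateral 3), and were 905 without wt contralateral 2 and 883 without cKO contralateral 1. In wt alone 491 became 250 to 861 and in cKO alone 461 became 277 to 579. For cKO minus wt over all genes (contralateral, ipsilateral, both sides and difference of responses) edgeR called 0 with the filter and 96, 223, 236 and 72 without it, and DESeq2 called 3, 10, 10 and 0; the cause was not tested.

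Equal library numbers are not said to be 1 mouse. Among 14496 genes at 1 CPM or more, equal-numbered libraries of the sides correlated at −0.0043, 0.195 and 0.0936 in wt and 0.112, 0.183 and 0.0851 in cKO, where each contralateral library correlated best with its own number. With the replicate block, members called were 3 in wt (Mbp, Sox10 and Ptprz1), 4 in cKO (C1ql1, Mbp, Sox10 and Bcas1) and 9 with the genotypes averaged, where Mobp and Pdgfra joined. Over all genes the block called 526, 490 and 1116 of 16836 higher in these 3 comparisons.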
